A study of Mus musculus with 11 samples.

Results

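The interferon-response genes are 37 genes that cells switch on when interferon reaches them. They were picked by gene symbol, and a gene was counted as measured where a probe matched to it by RefSeq accession was well above background in at least 5 of the 22 channels. In all, 35 of the 37 genes were measured, out of 26082 features tested, and each of the 35 was above background in all 22 channels. Mx1 and Mx2 had no matched probe and are not analysed here. The genes were followed in the right hemisphere cortex of 22 C57/Bl6J mice, 5 to 7 months of age, with 11 Agilent 2-colour arrays that each carried RNA of 1 mouse in Cy5 and of another in Cy3. TC mice (n = 6) were GFA2-tTa/TetO-VP16-CREB transgenics with a cryolesion, WTC mice (n = 5) were wild type with a cryolesion, T mice (n = 5) were transgenics with intact cortex, and WT mice (n = 6) were wild type with intact cortex. The GFA2 promoter is a fragment of the GFAP promoter and drives the transactivator in astrocytes, which then make VP16-CREB, CREB fused to a viral activation domain so that it drives its target genes without a signal. The lesion was made on the brain surface by 30 s of contact with dry ice, and lesioned mice were killed 3 days later; the labels give no sham operation for the intact mice. Tissue was bulk cortex, so more cells of a type and more RNA per cell cannot be told apart.

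Type I interferons (Ifna genes, Ifnb1) bind the receptor Ifnar1/Ifnar2 and type II interferon (Ifng) binds Ifngr1/Ifngr2. The JAK kinases at these receptors activate transcription factors that bind interferon-stimulated response elements (ISRE), as a complex with Stat2 and Irf9, or gamma-activated sites (GAS), chiefly after type II interferon. The genes they switch on block viral replication at many steps and also feed back on the pathway, and in brain they are known from microglia, astrocytes and infiltrating leukocytes after injury or infection.

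The promoter letters through which the pathway acts are shown for 10 of the genes. RefSeq promoters (GRCm38.p6, from 250 bases before to 50 bases after the start) were found for 30 of the 37 genes. The letters GAAANNGAAA, the core of an ISRE, were searched on both strands and lay in 16 of 37 promoters of these genes (43.2%), against 3.44% of all 32851 promoters. The letters TTCNNNGAA, the core of a GAS, lay in 11 of the 37 promoters (29.7%), against 8.3% of all. The cAMP response element TGACGTCA, the full palindrome that CREB binds, was in 0 of the 37 and in 1.79% of all promoters, and its shorter core TGACG was in 6 of the 37 (16.2%) and in 20.8% of all. A match is only a match of letters, and whether the letters go with the differences between genes below was not tested. Irf7, Oasl1 and Oasl2, which are not shown, had neither an ISRE nor a GAS match in their listed promoters. Each stretch of 80 bases runs 5′ to 3′ on the gene's own strand, ends before the start, and has every ISRE or GAS match in capitals. Isg15 had 3 overlapping ISRE matches, and Bst2, Irgm1, Ifit1 and Ifit3 had 2 each. Bst2 also had a GAS match that overlaps the first of its ISRE matches. Irf1 and Irf8 had GAS matches and no ISRE match in the 300 bases.
Isg15, chr4:156200840-156200919, minus strand: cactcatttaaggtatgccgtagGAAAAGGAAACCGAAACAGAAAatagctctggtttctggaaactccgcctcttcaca
Bst2, chr8:71537552-71537631, minus strand: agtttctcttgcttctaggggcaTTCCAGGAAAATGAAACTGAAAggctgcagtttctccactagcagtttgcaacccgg
Irgm1, chr11:48871421-48871500, minus strand: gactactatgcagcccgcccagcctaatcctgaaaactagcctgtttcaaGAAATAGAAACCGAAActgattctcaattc
Ifit1, chr19:34640769-34640848, plus strand: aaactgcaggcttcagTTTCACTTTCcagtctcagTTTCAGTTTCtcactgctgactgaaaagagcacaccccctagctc
Ifit3, chr19:34583372-34583451, plus strand: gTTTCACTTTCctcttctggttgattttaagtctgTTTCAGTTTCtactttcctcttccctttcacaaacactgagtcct
Gbp2, chr3:142620569-142620648, plus strand: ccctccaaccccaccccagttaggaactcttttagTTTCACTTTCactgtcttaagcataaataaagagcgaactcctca
Stat2, chr10:128270248-128270327, plus strand: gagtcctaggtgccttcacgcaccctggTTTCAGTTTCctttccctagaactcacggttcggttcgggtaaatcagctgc
Ifitm2, chr7:140955963-140956042, minus strand: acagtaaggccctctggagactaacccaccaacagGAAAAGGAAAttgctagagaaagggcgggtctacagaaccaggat
Irf1, chr11:53769889-53769968, plus strand: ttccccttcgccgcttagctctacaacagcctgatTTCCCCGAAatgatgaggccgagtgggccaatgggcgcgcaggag
Irf8, chr8:120736170-120736249, plus strand: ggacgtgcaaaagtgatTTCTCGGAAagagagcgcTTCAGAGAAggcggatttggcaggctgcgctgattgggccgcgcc

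Some limits of the series bear on every value. The TC mouse of array I stood with the intact mice, since on the first principal component of all features it scored 28.6, inside the range of 23.7 to 43.3 of the 11 intact mice, while the other 10 lesioned mice lay between -105 and -0.18. On arrays I, J and K the label of the Cy3 channel contradicts the title (T against TC on I and K, TC against T on J), and groups follow the titles. All 6 WT mice were on slide 1, so slide and lesion are partly confounded, and each set of arrays that pairs 2 groups directly lay on 1 slide. Levels are normalized log2 values of a channel with the probe's dye effect removed. Log2 ratios come with their SE from limma, in a fit of the 11 array ratios (the ratio fit, 7 residual degrees of freedom) or of the 22 channels (the separate-channel fit, 17). Adjusted p-values are over all features, and a gene was called where they were under 0.05.

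Cortex with a cryolesion read higher for nearly all of the genes, in both genotypes. Their mean level was 10.65 ± 1.002 in TC mice and 9.25 ± 0.39 in T mice (SD, n = 6 and 5), and 10.60 ± 0.84 in WTC mice and 9.13 ± 0.39 in WT mice (SD, n = 5 and 6). In the ratio fit the median log2 ratio over the 35 genes was 0.91 for WTC minus WT and 0.74 for TC minus T, with 34 of 35 positive in each, against 50.6% and 51.3% of all features. Single arrays moved these medians: that of WTC minus WT was 0.45 without array B, and that of TC minus T lay at 0.39 with array C left out, or at 1.18 with array I left out. The median over all 26082 features was 0.0033 and 0.005. Adar, an RNA editing enzyme, was the exception in both. No gene was called by limma in the ratio fit, where 0.023% of all features were called higher in WTC than in WT and 0% higher in TC than in T. At an unadjusted p under 0.05, 16 of 35 genes were higher in WTC than in WT, against 12.7% of all features, and 8 of 35 were higher in TC than in T, against 6.94%. None was lower at that p, against 6.93% and 4.98% of all features.

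The separate-channel fit has more degrees of freedom and also draws on level differences between arrays. Its ratios were larger in size than those of the ratio fit for each gene in both lesion comparisons. For Isg15 in WTC minus WT it gave 2.35, against 1.48. The fit called 25 of the 35 genes higher in WTC than in WT, against 14.2% of all features, and 1 lower (Adar), against 12.2%. It called 13 of 35 higher in TC than in T, against 4.71% of all features, and none lower, against 2.7%. The comparisons share no mice, but each fit estimates all groups together. With a slide term the counts were 9 higher for WTC minus WT, against 9.21% of all features, with none lower, against 4.08%, and 1 higher for TC minus T, against 2.64%. With that TC mouse (array I) left out they were 29 higher, against 16.2%, and 26 higher, against 8.12%. Without both mice of array M they were 23 higher, against 11.7%, with 1 lower, against 7.77%, and 9 higher, against 4.4%. With arrays I, J and K left out, the ratio fit called 14 higher in WTC than in WT, against 5.21%. It called none of the 35 in TC against T, where it called 0% of all features. The count of calls thus moved with the fit and with 1 mouse, while the sign of the ratio was the same for 34 of 35 genes in each of these fits. These fits share arrays, so their signs are not independent. On the 2 arrays that paired TC with T directly, 12 (I) and 21 (J) of 35 genes were positive, against 46.1% and 52.2% of all features.

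The 16 genes with an ISRE match in a listed promoter had a median ratio of 0.90 for WTC minus WT, against 0.79 for the 14 without one, and for TC minus T the medians were 0.74 and 0.71. No test was made of that difference.

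**Figure D1:**
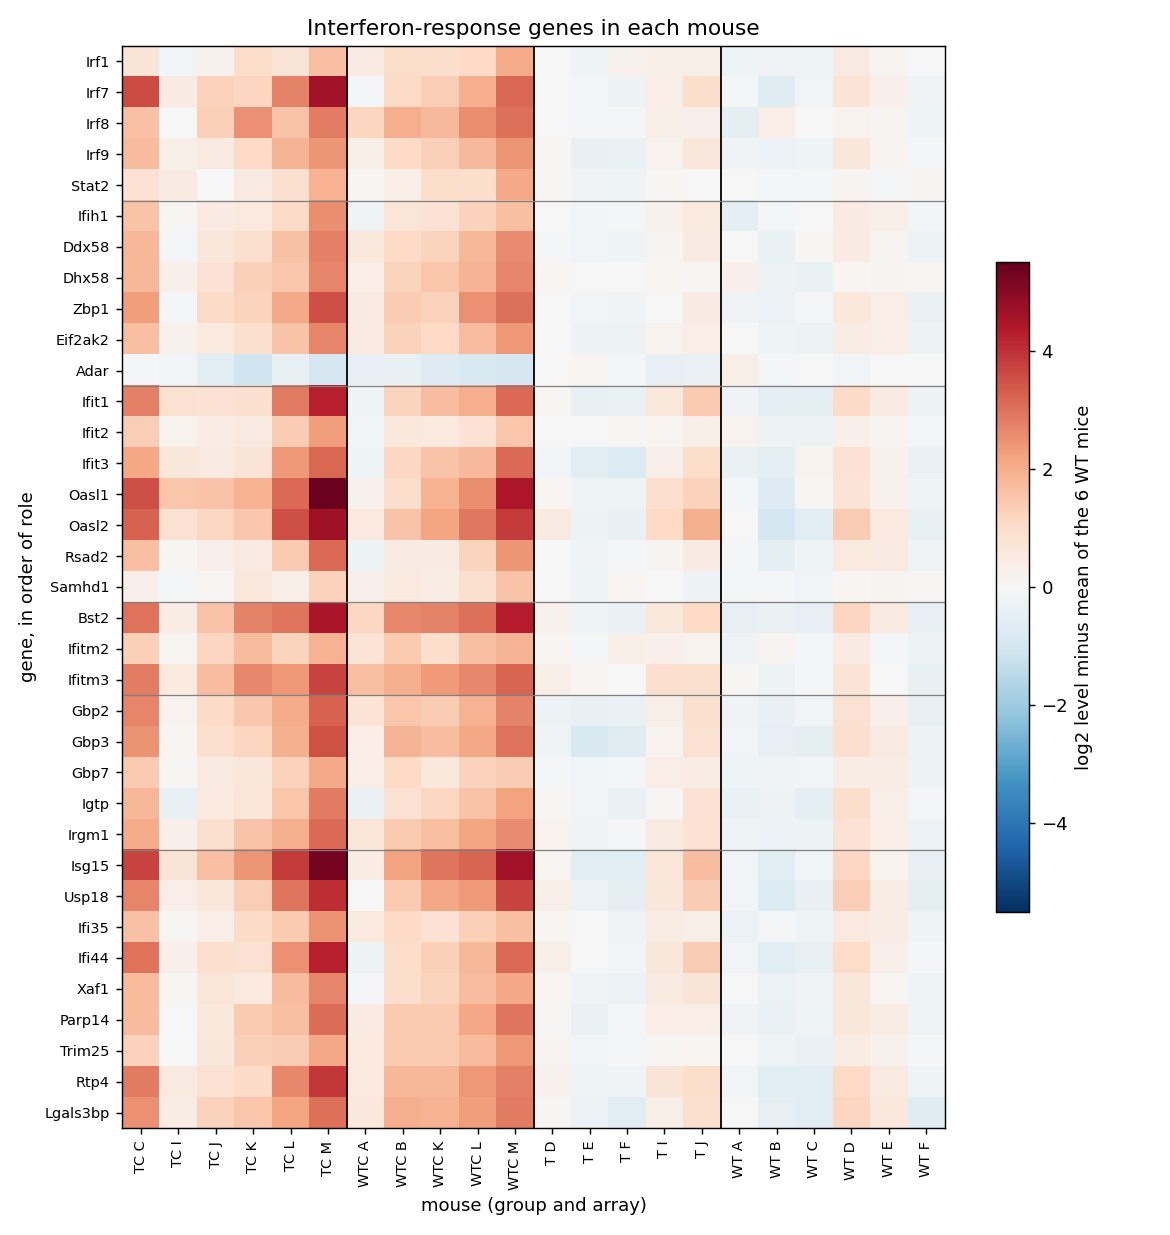
Log2 level of each of the 35 genes (down the page, in order of role, with grey lines between roles) in each of the 22 mice (across, by group and array letter), minus the mean of the 6 WT mice. Red is higher; most TC and WTC mice are red for most genes, the TC mouse of array I and the WTC mouse of array A are pale for many, and the mice of array M are the reddest of each lesioned group.

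**Figure D2:**
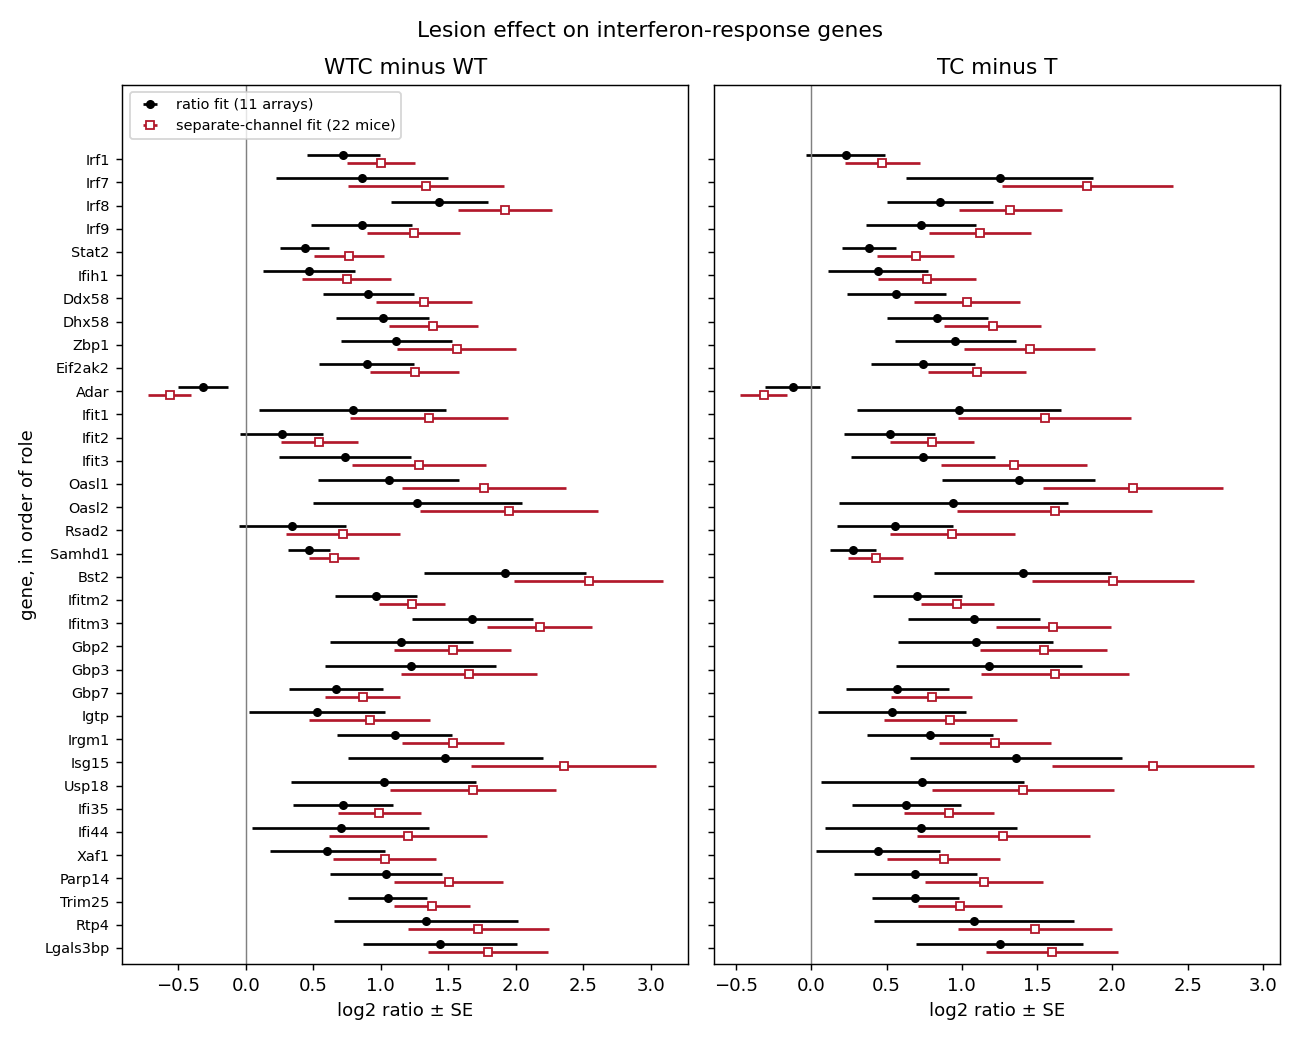
Log2 ratio ± SE of each gene for WTC minus WT (left) and TC minus T (right), from the ratio fit (black circles, 11 arrays) and the separate-channel fit (open red squares, 22 mice). Adar lies below 0 and the other 34 genes above it in both panels.

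Transcription factors of the pathway come first. Irf8, a factor of microglia, macrophages and dendritic cells that also responds to type II interferon, had the smallest p of the 5 for WTC minus WT. Its level was 10.89, 11.71, 11.47, 12.25 and 12.70 in the WTC mice of arrays A, B, K, L and M, and WT mice had 9.18, 9.77 and 10.07 as lowest, median and highest. In TC mice the lowest, median and highest levels were 9.73, 11.28 and 12.49, and the T mice of arrays D, E, F, I and J had 9.73, 9.65, 9.64, 10.02 and 9.98. Every WTC mouse was above every WT mouse, and of the TC mice only that of array I fell within the T range. The log2 ratio was 1.43 ± 0.36 for WTC minus WT (adjusted p = 0.109; separate-channel fit 1.92 ± 0.35, adjusted p = 0.000963). For TC minus T it was 0.85 ± 0.35 (adjusted p = 0.395; separate-channel fit 1.32 ± 0.34, adjusted p = 0.026).

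Irf7, the factor that amplifies type I interferon production, varied more between mice. Its levels were 7.03, 8.17, 8.49, 9.12 and 10.30 in WTC mice, against 6.45, 7.02 and 7.89 (lowest, median, highest) in WT mice. TC mice had 7.56, 9.12 and 11.76 (lowest, median, highest), against 7.15, 7.03, 6.83, 7.50 and 8.09 in T mice. Both pairs of groups overlapped, since the WTC mouse of array A and the TC mouse of array I lay within the intact range while the mice of array M stood highest. The log2 ratio of Irf7 was 0.86 ± 0.64 for WTC minus WT (adjusted p = 0.492) and 1.25 ± 0.62 for TC minus T (adjusted p = 0.46), and the separate-channel fit did not call it either (adjusted p = 0.0895 and 0.0539).

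Irf1, a factor induced chiefly through GAS elements, had 10.45, 10.98, 10.97, 11.09 and 12.02 in WTC mice and 9.77, 9.88 and 10.49 in WT mice (lowest, median, highest). It had 9.84, 10.69 and 11.64 in TC mice and 9.95, 9.75, 10.23, 10.31 and 10.30 in T mice. The WTC mouse of array A lay below the highest WT mouse, and the TC mice of arrays I and J lay within the T range. The ratio was 0.72 ± 0.27 in wild type and 0.23 ± 0.26 in transgenics (adjusted p = 0.189 and 0.784). Stat2, which binds DNA together with Irf9, had 10.52, 10.82, 11.48, 11.43 and 12.55 in WTC mice and 10.35, 10.41 and 10.63 in WT mice. Its levels were 10.49, 11.11 and 12.38 in TC mice and 10.51, 10.28, 10.22, 10.51 and 10.45 in T mice. The WTC mouse of array A lay within the WT range and the TC mouse of array J within the T range, while the TC mouse of array I was above all T mice, and the highest lesioned mice were those of array M. The Stat2 ratio was 0.44 ± 0.18 for WTC minus WT (adjusted p = 0.233) and 0.38 ± 0.18 for TC minus T (adjusted p = 0.44). Irf9, the DNA-binding member of the complex, gave 0.86 ± 0.37 and 0.73 ± 0.37.

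Sensors of foreign nucleic acid and RNA-binding enzymes followed. Dhx58, which encodes the RIG-I-like receptor LGP2, had no overlap between lesioned and intact mice in either genotype. Lesioned mice lay entirely above intact mice for 9.07% of all features in wild type and 2.06% in transgenics, and the share for both together was not counted. The level of Dhx58 was 7.40, 8.26, 8.57, 8.91 and 9.75 in WTC mice and 6.67, 7.17 and 7.32 in WT mice. TC mice had 7.33, 8.48 and 9.75, and T mice had 7.13, 7.04, 7.04, 7.15 and 7.11. Even the TC mouse of array I, at 7.33, was above the highest T mouse, at 7.15, and the WTC mouse of array A, at 7.40, was just above the highest WT mouse, at 7.32. The ratio was 1.01 ± 0.34 for WTC minus WT (adjusted p = 0.161; separate-channel fit 1.39 ± 0.33, adjusted p = 0.0059) and 0.84 ± 0.34 for TC minus T (adjusted p = 0.389; separate-channel fit 1.20 ± 0.32, adjusted p = 0.0305).

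Ddx58, which encodes the RNA sensor RIG-I, had 9.15, 9.66, 9.81, 10.37 and 11.18 in WTC mice and 8.22, 8.60 and 8.999 in WT mice. It had 8.50, 9.83 and 11.35 in TC mice and 8.45, 8.40, 8.33, 8.73 and 9.07 in T mice. WTC mice were all above WT mice, and TC mice overlapped T mice through the mouse of array I alone. Its ratio was 0.91 ± 0.34 in wild type and 0.57 ± 0.33 in transgenics (adjusted p = 0.187 and 0.525). Zbp1, a sensor of Z-form nucleic acid that can trigger cell death, had 7.51, 8.44, 8.34, 9.56 and 10.08 in WTC mice and 6.69, 6.93 and 7.64 in WT mice. Its levels in TC mice were 6.98, 8.72 and 10.60 and in T mice 7.03, 6.90, 6.87, 7.05 and 7.49. The WTC mouse of array A and the TC mouse of array I overlapped the intact mice. The ratio of Zbp1 was 1.11 ± 0.41 for WTC minus WT and 0.96 ± 0.40 for TC minus T (adjusted p = 0.186 and 0.403). Eif2ak2, the kinase PKR that halts translation, gave 0.90 ± 0.35 and 0.74 ± 0.35, and Ifih1, the sensor MDA5, gave 0.47 ± 0.34 and 0.44 ± 0.33. Adar gave -0.31 ± 0.19 and -0.12 ± 0.18, and every WTC mouse was below every WT mouse. The second Adar probe, which is dimmer, gave 0.05 and 0.02, so the lower reading of Adar rests on 1 of 2 probes. Second, dimmer probes also gave smaller ratios for Ifih1 (0.02 and 0.09), Xaf1 (0.12 and 0.10), Ddx58 (0.33 and 0.25) and Zbp1 (0.82 and 0.46). Those of Isg15 gave 1.19 and 1.17, of Lgals3bp 1.12 and 0.995, of Irgm1 0.87 and 0.79, and of Samhd1 0.52 and 0.41.

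Antiviral effectors bind viral RNA or starve the virus of building blocks. Oasl1, an OAS-like protein, had 9.02, 9.998 and 12.88 in TC mice and 7.60, 7.23, 7.25, 8.39 and 8.74 in T mice. Its levels were 7.72, 8.46, 9.39, 10.03 and 11.94 in WTC mice and 6.78, 7.46 and 8.24 in WT mice. All TC mice were above all T mice, which held for only 2 of the 35 genes (Oasl1 and Dhx58), against 2.06% of all features, while the WTC mouse of array A lay within the WT range. The ratio was 1.38 ± 0.51 for TC minus T (adjusted p = 0.363; separate-channel fit 2.14 ± 0.60, adjusted p = 0.0358) and 1.06 ± 0.52 for WTC minus WT (adjusted p = 0.299).

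Oasl2, of the same family, had 9.52, 10.55, 11.15, 11.90 and 12.81 in WTC mice and 8.06, 8.76 and 10.38 in WT mice. It had 9.83, 11.35 and 13.65 in TC mice and 9.46, 8.72, 8.56, 10.07 and 10.94 in T mice. Both pairs of groups overlapped, and the T mouse of array J was above 3 of the 6 TC mice. The ratio of Oasl2 was 1.27 ± 0.78 in wild type and 0.94 ± 0.76 in transgenics (adjusted p = 0.401 and 0.655). Ifit3, which binds viral RNA complexes together with Ifit1, had 10.83, 12.19, 12.63, 12.85 and 14.15 in WTC mice and 10.58, 10.97 and 11.86 in WT mice. TC mice had 11.53, 12.48 and 14.22 and T mice had 10.92, 10.41, 10.30, 11.35 and 12.04. The WTC mouse of array A lay within the WT range, and the T mouse of array J was above the TC mice of arrays I, J and K. Its ratio was 0.74 ± 0.49 for WTC minus WT and 0.74 ± 0.48 for TC minus T (adjusted p = 0.44 and 0.571). Ifit1 gave 0.79 ± 0.69 and 0.98 ± 0.68, Ifit2 gave 0.27 ± 0.31 and 0.52 ± 0.30, and Rsad2, which encodes the radical-SAM enzyme viperin, gave 0.35 ± 0.39 and 0.56 ± 0.39.

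Samhd1, an enzyme that degrades the deoxynucleotides viruses need, had the smallest range within TC mice of the 34 genes that read higher, 1.32 log2 units. Its level was 10.43, 10.67, 10.54, 11.02 and 11.68 in WTC mice and 9.96, 10.13 and 10.30 in WT mice. It was 10.07, 10.42 and 11.38 in TC mice and 10.13, 9.91, 10.22, 10.10 and 9.87 in T mice. WTC mice were all above WT mice, and the TC mice of arrays I and J lay within the T range. The ratio was 0.47 ± 0.15 for WTC minus WT (adjusted p = 0.152; separate-channel fit 0.66 ± 0.18, adjusted p = 0.0154) and 0.28 ± 0.15 for TC minus T (adjusted p = 0.496).

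Membrane restriction factors had the largest median ratios of the role groups, 1.68 for WTC minus WT and 1.08 for TC minus T, over 3 genes. Ifitm3, which blocks entry of viruses through endosomes, had 11.80, 12.15, 12.48, 12.80 and 13.36 in WTC mice and 9.76, 10.09 and 10.90 in WT mice. TC mice had 10.70, 12.66 and 13.86 and T mice had 10.49, 10.25, 10.16, 11.09 and 11.04. Every WTC mouse was above every WT mouse, and the TC mouse of array I was the one lesioned mouse in the intact range. The ratio was 1.68 ± 0.45 for WTC minus WT (adjusted p = 0.116; separate-channel fit 2.18 ± 0.39, adjusted p = 0.000872). For TC minus T it was 1.08 ± 0.44 (adjusted p = 0.394; separate-channel fit 1.61 ± 0.38, adjusted p = 0.0182). Bst2, tetherin, which holds budding virus at the cell surface, had 10.92, 12.42, 12.52, 12.83 and 14.09 in WTC mice and 9.32, 9.38 and 10.97 in WT mice. It had 10.20, 12.62 and 14.26 in TC mice and 10.01, 9.54, 9.40, 10.36 and 10.86 in T mice. The WTC mouse of array A lay just under the highest WT mouse, and the TC mouse of array I under 2 of the T mice. In the ratio fit Bst2 had the largest ratio of the 35 genes, 1.92 ± 0.60 for WTC minus WT (adjusted p = 0.142) and 1.40 ± 0.59 for TC minus T (adjusted p = 0.403), and the separate-channel fit called both (adjusted p = 0.0032 and 0.0301). In that fit Isg15 and Oasl1 were above it for TC minus T, at 2.27 and 2.14 against 2.01. Ifitm2 gave 0.96 ± 0.30 and 0.70 ± 0.30 and was also called in both.

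Interferon-inducible GTPases act on the membranes around intracellular pathogens. Gbp2 had 9.75, 10.55, 10.39, 10.90 and 11.74 in WTC mice and 8.57, 8.85 and 9.86 in WT mice. Its levels were 9.19, 10.77 and 12.26 in TC mice and 8.75, 8.60, 8.62, 9.31 and 9.88 in T mice. The WTC mouse of array A and the TC mouse of array I were the ones that overlapped the intact mice. The ratio was 1.15 ± 0.53 in wild type and 1.09 ± 0.52 in transgenics (adjusted p = 0.268 and 0.443; separate-channel fit 0.0155 and 0.033). Gbp3 had 9.86, 11.36, 11.17, 11.59 and 12.48 in WTC mice and 8.94, 9.25 and 10.41 in WT mice. It had 9.57, 11.06 and 12.98 in TC mice and 9.27, 8.66, 8.81, 9.69 and 10.30 in T mice. The same mice overlapped, and the ratio was 1.22 ± 0.63 and 1.18 ± 0.62 (adjusted p = 0.322 and 0.484). Irgm1, a regulator of the related IRG GTPases, had 10.90, 11.66, 11.90, 12.41 and 12.83 in WTC mice and 9.92, 9.996 and 11.02 in WT mice. TC mice had 10.54, 12.03 and 13.35 and T mice 10.42, 10.05, 10.17, 10.73 and 11.05. Its groups overlapped again through array A in wild type and array I in transgenics, and the ratio was 1.10 ± 0.43 and 0.79 ± 0.42 (adjusted p = 0.203 and 0.49). Gbp7 gave 0.67 ± 0.35 and 0.57 ± 0.34, and Igtp gave 0.53 ± 0.50 and 0.54 ± 0.49.

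Isg15, an interferon-induced ubiquitin-like protein that becomes attached to other proteins, spanned the widest range of the 35 genes within TC mice, 4.56 log2 units. Its level was 11.09, 13.45 and 15.65 in TC mice, and 10.49, 9.81, 9.78, 11.02 and 12.06 in T mice. WTC mice had 10.79, 12.59, 13.33, 13.56 and 15.005 and WT mice had 9.80, 10.22 and 11.52. The mice of array M were the highest of both lesioned groups, the TC mouse of array I and the WTC mouse of array A lay within the intact range, and the T mouse of array J was above the TC mice of arrays I and J. The ratio was 1.48 ± 0.72 for WTC minus WT (adjusted p = 0.297; separate-channel fit 2.35 ± 0.68, adjusted p = 0.0183). For TC minus T it was 1.36 ± 0.71 (adjusted p = 0.479; separate-channel fit 2.27 ± 0.67, adjusted p = 0.045). Usp18, the protease that removes Isg15 and dampens the receptor, gave 1.02 ± 0.69 and 0.74 ± 0.67.

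Trim25, the ubiquitin ligase that activates RIG-I, had 11.36, 12.28, 12.27, 12.59 and 13.23 in WTC mice and 10.48, 10.81 and 11.24 in WT mice. It had 10.83, 12.12 and 12.97 in TC mice and 10.97, 10.67, 10.72, 10.91 and 10.95 in T mice. WTC mice did not overlap WT mice, and only the TC mouse of array I lay within the T range. Its ratio was 1.05 ± 0.30 in wild type and 0.69 ± 0.29 in transgenics (adjusted p = 0.124 and 0.402), and the separate-channel fit called both (adjusted p = 0.0022 and 0.0358). Lgals3bp, a secreted glycoprotein that binds galectins, had 12.22, 13.61, 13.52, 13.91 and 14.48 in WTC mice and 10.95, 11.37 and 12.82 in WT mice. Its levels were 12.05, 13.48 and 14.65 in TC mice and 11.71, 11.29, 10.99, 11.96 and 12.50 in T mice. Both pairs overlapped through arrays A and I, and the ratio was 1.44 ± 0.57 and 1.25 ± 0.56 (adjusted p = 0.211 and 0.42). Parp14, an ADP-ribosyltransferase, had 8.66, 9.64, 9.62, 10.30 and 11.14 in WTC mice and 7.83, 7.99 and 8.80 in WT mice. TC mice had 8.19, 9.74 and 11.27 and T mice 8.25, 7.84, 8.07, 8.58 and 8.55. The same mice overlapped, and the ratio was 1.04 ± 0.42 and 0.69 ± 0.41 (adjusted p = 0.213 and 0.53). Ifi35, Ifi44, Xaf1 and Rtp4 had ratios of 0.61 to 1.33 for WTC minus WT and 0.44 to 1.08 for TC minus T.

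Counted over all genes, levels of WTC mice lay entirely above those of WT mice for 9 of the 35 genes, against 9.07% of all features, and entirely below for 1 (Adar), against 7.21%. The 9 were Irf8, Ifi35, Ddx58, Dhx58, Ifitm2, Ifitm3, Trim25, Eif2ak2 and Samhd1. For TC against T the count was 2, and none lay entirely below, against 2.86%, and it was 18 once the TC mouse of array I was left out, against 6.96% of all features. That mouse was the lowest of the TC mice for 31 of 35 genes, against 20.7% of all features, and was not above the highest T mouse for 32 of 35, against 74%.

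**Figure D3:**
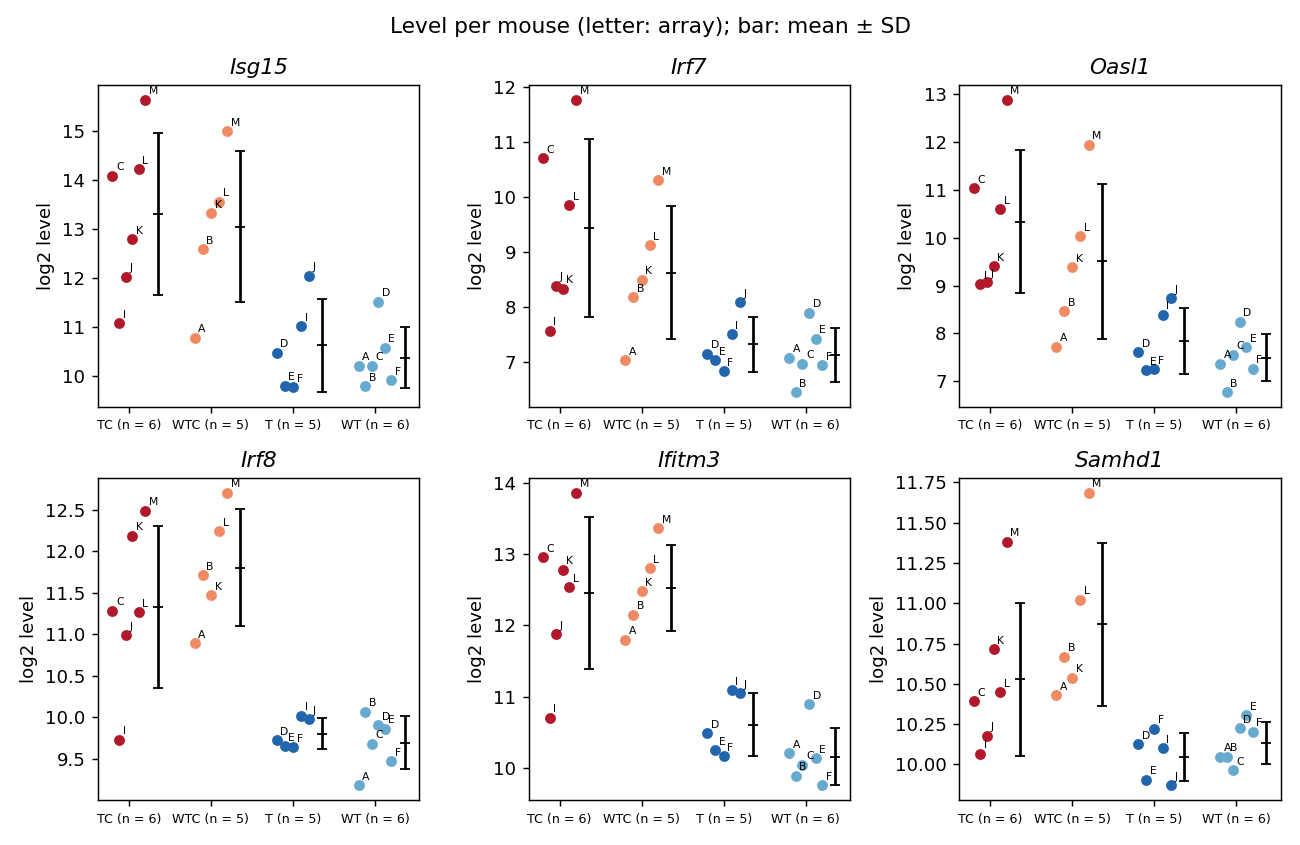
Log2 level of Isg15, Irf7, Oasl1, Irf8, Ifitm3 and Samhd1 in each mouse (points, lettered by array) of the TC, WTC, T and WT groups, with the mean ± SD as a bar beside each group. Irf8, Ifitm3 and Samhd1 separate WTC from WT without overlap, while Isg15, Irf7 and Oasl1 do not.

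Variation between mice of 1 group was wide for these genes beside all features, but not for these genes alone. The median SD over the 35 genes was 1.01 in TC, 0.83 in WTC, 0.41 in T and 0.40 in WT, against 0.24, 0.24, 0.13 and 0.14 over all features. The SD of the mean level over the 35 genes was 1.002 in TC and 0.84 in WTC. That of the mean over monocyte and macrophage markers was 1.16 and 0.80, and that over astrocyte markers was 0.17 and 0.07. The mean level over the 35 genes was 11.16, 9.39, 9.89, 10.29, 11.01 and 12.18 in the TC mice of arrays C, I, J, K, L and M, and 9.20, 8.90, 8.91, 9.47 and 9.80 in the T mice of arrays D, E, F, I and J. It was 9.45, 10.37, 10.49, 10.96 and 11.75 in the WTC mice of arrays A, B, K, L and M, and 8.99, 8.78, 8.89, 9.79, 9.40 and 8.89 in the WT mice of arrays A to F. The mice of array M were the highest of their group for 34 of 35 genes in TC and 34 of 35 in WTC, against 11.8% and 27.1% of all features. On the mean over the genes, 3 intact mice, T of arrays I and J and WT of array D, were above the lowest mouse of each lesioned group. WTC mice averaged 9.91 on slide 1 (n = 2) and 11.07 on slide 2 (n = 3), and T mice 9.001 on slide 1 (n = 3) and 9.64 on slide 2 (n = 2). TC mice went the other way, at 11.16 on slide 1 (n = 1) and 10.55 on slide 2 (n = 5). The means of WTC and T mice were higher on slide 2 for 34 and 33 of the 35 genes, against 45.8% and 49.9% of all features. The part of the slide in the lesion ratios cannot be told apart from that of the mice it carried.

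The arrays that paired 2 groups directly give the ratios with no modelling but the dye effect. The median over the 35 genes was 0.51 on array A and 1.61 on array B (WTC minus WT), and 1.99 on array C (TC minus WT). On the 2 arrays that paired TC with T it was -0.12 (I) and 0.08 (J), with 12 and 21 of 35 genes positive, while the fitted TC minus T median of 0.74 also draws on the arrays that link these groups through WT and WTC mice. The mean of arrays I and J had a median of -0.01 over the 35 genes. For Isg15 the ratio was 0.07 on array I and -0.03 on array J, against 3.88 on array C. For Irf8 it was -0.29 and 1.01 on arrays I and J, against 1.61 on array C. On array J, Isg15 was thus nearly level between the TC and the T mouse while Irf8 was higher in the TC mouse. The titles and the channel 2 labels of both arrays disagree, and with groups from the channel 2 labels the median TC minus T ratio was 1.60. By those labels array I would pair T with T and array J TC with TC, so neither would compare TC with T. On the first principal component the Cy3 mice of arrays I (titled TC) and J (titled T) scored 28.6 and 34.0. Both scores lay within the range of the mice titled intact other than that Cy3 mouse of array J. The Cy3 mouse of array K, titled TC and labelled T, scored -85.6, among the lesioned mice.

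**Figure D4:**
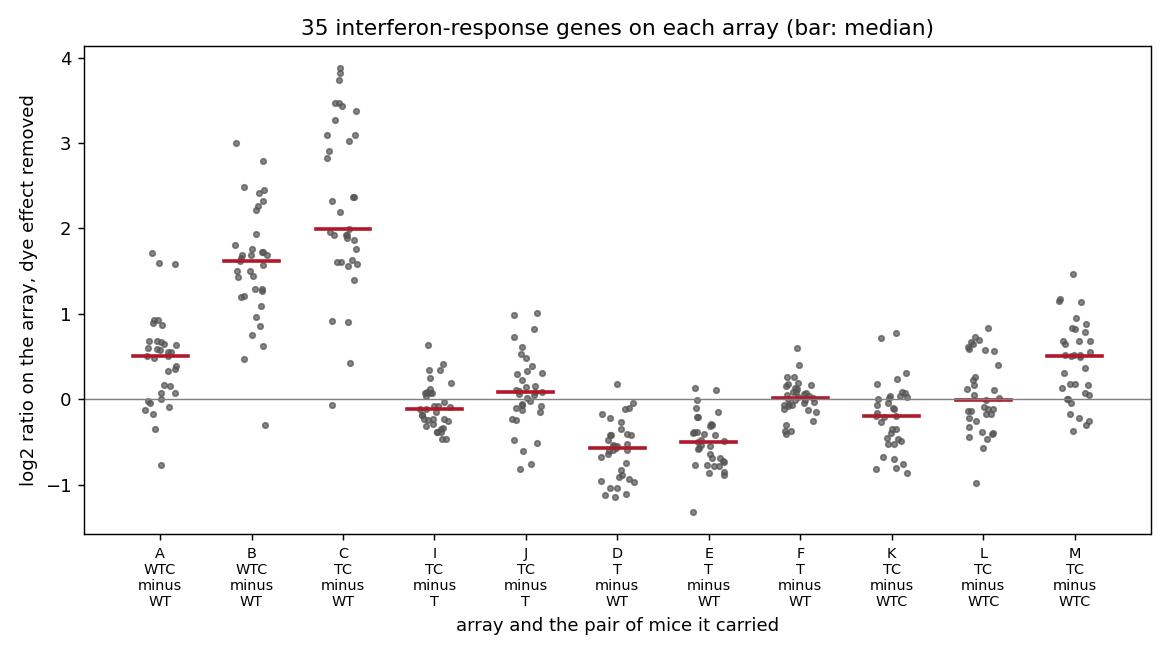
Log2 ratio of each of the 35 genes (points) on each of the 11 arrays, dye effect removed, with the median as a red bar; the pair of groups each array carried is under its letter. The medians of arrays A, B and C are 0.51, 1.61 and 1.99, and those of arrays I and J, which pair TC with T, are -0.12 and 0.08.

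The genotype comparisons asked whether VP16-CREB in astrocytes went with a different level of these genes. In intact cortex the median T minus WT ratio was 0.14, with 30 of 35 genes positive against 49.2% of all features, and limma called none, as it called none of all features (0%); at an unadjusted p under 0.05 none of the 35 was higher or lower, against 0.993% and 1.92% of all features, and the separate-channel fit called none. With a slide term in the separate-channel fit the median was -0.000353. The largest ratio was that of Ifitm3, at 0.61 ± 0.40. On the arrays that paired T with WT directly the medians were -0.57 (D), -0.50 (E) and 0.02 (F), which is the opposite sign for D and E, and the WT mouse of array D was the highest WT mouse for 30 of 35 genes, against 15.8% of all features. In lesioned cortex the median TC minus WTC ratio was -0.02, with 17 of 35 positive against 44.4% of all features. None was called in either fit, against 0% of all features in the ratio fit and 0.116% higher and 0.0231% lower in the separate-channel fit, and none had an unadjusted p under 0.05, against 6.12% higher and 8.68% lower of all features in the ratio fit. Without the TC mouse of array I the median of the separate-channel fit was 0.19. Arrays K, L and M gave medians of -0.20, -0.02 and 0.50. Irf7 had 0.69 ± 0.56 (adjusted p = 0.593), Irf8 had -0.32 ± 0.32 (adjusted p = 0.659) and Isg15 had 0.13 ± 0.64 (adjusted p = 0.944). The test of the lesion effect in transgenics minus that in wild type gave a median of -0.15 with 9 of 35 positive against 45.4% of all features, and none was called (0% of all features) or had an unadjusted p under 0.05 (2.93% higher and 2.45% lower of all features). With the TC mouse of array I left out of the separate-channel fit, that median was 0.07. It was 0.81 in the ratio fit without arrays I, J and K, and 0.18 without array B, so its sign was not settled by these arrays. The SE of single genes was 0.14 to 0.70 for T minus WT and 0.13 to 0.68 for TC minus WTC, so a difference of that size was not detectable with these arrays.

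Markers of some cell types were also higher in lesioned cortex, while others were near level or lower. The mean level of 14 microglia markers was 12.61 ± 0.71 in TC mice and 11.49 ± 0.16 in T mice (SD, n = 6 and 5), and 13.05 ± 0.35 in WTC mice and 11.51 ± 0.25 in WT mice (SD, n = 5 and 6). That of 11 measured monocyte and macrophage markers was 9.01 ± 1.16 in TC and 7.34 ± 0.34 in T mice, and 9.49 ± 0.80 in WTC and 7.13 ± 0.20 in WT mice. The TC mouse of array I read 11.34 for microglia and 7.30 for macrophage markers, both within the intact range. Astrocyte markers did not set that mouse apart: their mean over 10 genes was 13.26 in it, against 12.58 to 12.79 in T mice, with 12.95 to 13.48 over all TC mice, and 13.24 to 13.41 in WTC mice, against 12.47 to 12.80 in WT mice. The 5 measured neutrophil markers were at 7.62 ± 0.61 in TC and 7.34 ± 0.51 in T mice, and at 8.12 ± 0.30 in WTC and 6.79 ± 0.08 in WT mice. Markers of neighbouring tissue also varied: the mean of 8 choroid plexus and ependyma markers was 7.73 to 12.47 in TC and 9.06 to 10.38 in T mice, and 9.98 to 12.68 in WTC and 8.54 to 12.54 in WT mice. The mean of 8 striatum markers was 8.66 to 11.38 in TC and 8.84 to 11.75 in T mice, and 8.47 to 12.04 in WTC and 9.14 to 12.61 in WT mice. The mean of 10 neuron markers was 13.26 to 13.78 in TC and 13.76 to 14.01 in T mice, and 13.43 to 13.82 in WTC and 13.96 to 14.05 in WT mice, where the groups did not overlap. The 9 measured markers of T, B and NK cells were near the same level in all groups, at 7.58 to 7.86 in TC and 7.56 to 7.72 in T mice, and 7.60 to 8.07 in WTC and 7.51 to 7.78 in WT mice. The 4 measured Y-linked genes averaged 5.80 to 6.498 in 4 mice (WTC of array M, T of array I, and WT of arrays E and F) and 7.87 to 8.96 in the other 18, and the labels give no sex. The part of cell types, dissection or sex in the ratios was not tested.

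In some TC mice the levels of Irf8 and Irf7 stood differently beside these markers; these mice were singled out after their values were seen, and the difference was not tested. Among the TC mice, that of array K had 10.32 for macrophage markers, as high as the mouse of array M at 10.30, and its Irf8 level was 12.19, near the 12.49 of array M. Its Irf7 level was 8.32, against 11.76 in the mouse of array M. The TC mouse of array C, with 9.01 for macrophage markers, had an Irf7 level of 10.70 and an Isg15 level of 14.09, both above those of the mouse of array K, where Isg15 was 12.80. In the WTC mice of arrays A, B, K, L and M the macrophage markers were at 8.69, 9.05, 9.02, 10.34 and 10.36, and there the mice of arrays L and M, the highest for the markers, were also the highest for both Irf8 and Irf7. In 30 of 35 genes the TC mouse of array C was above that of array K, against 58.1% of all features, and Irf8, Samhd1, Irf1, Trim25 and Ifitm2 were the 5 that were not.

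**Figure D5:**
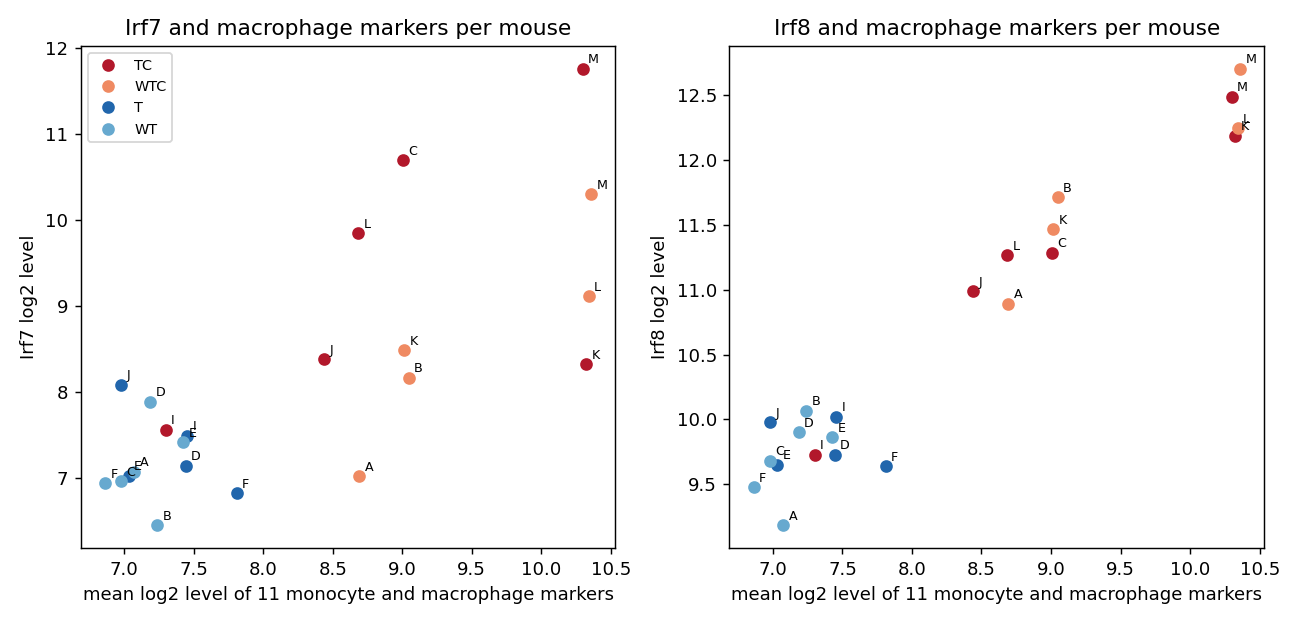
Log2 level of Irf7 (left) and Irf8 (right) against the mean log2 level of 11 monocyte and macrophage markers, 1 point per mouse, coloured by group and lettered by array. The TC mice of arrays K and M, at 10.32 and 10.30 on the marker axis, have 12.19 and 12.49 for Irf8 but 8.32 and 11.76 for Irf7.

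The rest of the pathway was read from lists of its parts. Of 15 interferon ligand genes, 13 had a probe and 7 passed the filter on dim probes; Ifnb1 and Ifng were not well above background in enough channels. The 7 were Ifna1, Ifna2, Ifna5, Ifna11, Ifna12, Ifnab and Ifnl3, and only 2 of them were above background in all 22 channels. Their mean level was 6.72 in TC and 6.69 in T mice, and 6.68 in WTC and 6.67 in WT mice. Their median ratio was -0.07 for WTC minus WT and -0.06 for TC minus T, and none was called by limma in the ratio fit, where 2 had an unadjusted p under 0.05 and were lower in WTC than in WT (Ifna2 at -0.17 ± 0.07 and Ifnl3 at -0.26 ± 0.10), against 6.93% of all features. Of the 6 receptor genes, the separate-channel fit called 3 higher in WTC than in WT and 1 higher in TC than in T, against 14.2% and 4.71% of all features, and the ratio fit none. The receptor ratios that follow are those of the separate-channel fit. Ifnar2, a chain of the type I receptor, had a ratio of 0.85 ± 0.13 for WTC minus WT and 0.66 ± 0.13 for TC minus T (adjusted p = 0.000423 and 0.0079). Its partner Ifnar1 had 0.09 ± 0.11 and -0.07 ± 0.11 (adjusted p = 0.561 and 0.72). Ifngr1 had 0.97 ± 0.19 and 0.52 ± 0.18 (adjusted p = 0.0014 and 0.0834), and Il10rb, shared with interleukin-10, had 1.06 ± 0.25 and 0.71 ± 0.25 (adjusted p = 0.0055 and 0.0817). Ifngr2 and Ifnlr1 were not called in either comparison.

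Of 11 measured genes of JAK-STAT signalling and its inhibitors, the separate-channel fit called 4 higher in each lesion comparison and none lower. Socs3, an inhibitor induced by Stat3, had 2.27 ± 0.41 for WTC minus WT and 1.48 ± 0.40 for TC minus T (adjusted p = 0.000936 and 0.0318), and Stat3 itself had 1.35 ± 0.22 and 0.92 ± 0.22 (adjusted p = 0.000476 and 0.017). Ptpn6, a phosphatase of blood cells and microglia, had 1.95 ± 0.32 and 1.29 ± 0.32 (adjusted p = 0.000574 and 0.0215). Socs1, which inhibits the JAK kinases, had 0.71 ± 0.20 and 0.69 ± 0.19 (adjusted p = 0.0153 and 0.0386). Of 16 measured genes of sensing upstream of interferon, 12 were called higher and 1 lower in WTC than in WT, and 6 higher in TC than in T. Ifi204, a DNA sensor that interferon also induces, had 3.45 ± 0.61 and 2.61 ± 0.60 (adjusted p = 0.000848 and 0.0159). Sting1, the adaptor of DNA sensing, had 1.51 ± 0.29 and 1.06 ± 0.28 (adjusted p = 0.0014 and 0.0301), Myd88, the adaptor of Toll-like receptors, had 0.96 ± 0.18 and 0.69 ± 0.18 (adjusted p = 0.0014 and 0.0271), and the kinase Tbk1 was the one called lower in WTC, at -0.58 ± 0.15 (adjusted p = 0.009). Of 49 further measured interferon-induced genes, 26 were called higher in WTC than in WT and 12 higher in TC than in T, none lower, with medians of 0.75 and 0.79 in the separate-channel fit. Over all features that fit called 14.2% and 4.71% higher. Nmi, Tor3a, Parp9 and Ifitm1 had the smallest p in the ratio fit, at 0.83 ± 0.20, 1.37 ± 0.33, 1.27 ± 0.37 and 0.97 ± 0.29 for WTC minus WT. In the ratio fit no gene of these 3 lists was called, while 5 of 11, 11 of 16 and 18 of 49 had an unadjusted p under 0.05 and were higher in WTC, against 12.7% of all features.

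In the authors' deposited table the median log ratio of the 35 genes was 1.84 for WTC minus WT and 1.33 for TC minus T, with 34 of 35 positive in each. By the authors' deposited table, 6 of the 33 adjusted p-values that could be read for these genes were under 0.05 for TC minus T, the lowest at 0.0276, and 0 of 33 for TC minus WTC, the lowest at 0.124. The share of all features under 0.05 in that table was not counted, so these counts have nothing to be set against. The authors' deposited table gave a median of -0.23 for TC minus WTC, with 12 of 35 positive. The sign of the ratio fit was that of the authors' deposited table for 35, 35 and 30 of the 35 genes in these comparisons.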

How the data were processed

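RNA of 22 mice was measured on 11 Agilent 2-colour arrays of 62976 spots each. Per the file headers, spots were read with Agilent Feature Extraction 10.7.3.1, which gave the deposited median spot and background intensities, not background-subtracted, and a log10 ratio of Cy5 over Cy3, processed by that software and used only as an alternative. Per the submitters' processing notes the authors used limma; their deposited table holds log fold changes, taken as log2, and adjusted p-values, of which the WTC minus WT p-values were not used because some exceed 1. No genome build or annotation version was stated in the labels or headers.

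Here, background was corrected with normexp (offset 50), and arrays were loess-normalized, in limma 3.58.1 (R 4.3.3). A minimum of 5 of 22 channels well above background left 26082 features, 16067 of them with a gene symbol; of several probes of a gene the brightest was used. The ratio fit estimated each other group relative to WT, plus a dye effect; the separate-channel fit followed Aquantile normalization (intraspot correlation 0.322, 25965 features). Both use empirical Bayes moderation, two-sided tests and Benjamini-Hochberg adjustment. The scripts were tested on simulated data. Between 56.6% and 65.3% of spots per channel were well above background; the number of arrays limits the precision. Each mouse was on 1 array.

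The genes, lists and tests were chosen with earlier results of these data known. Levels are given, for each WTC and T mouse and as the lowest, median and highest of TC and WT mice, for the genes with the 3 smallest p-values in WTC minus WT of each role group (2 for membrane factors), and always for Irf7, Stat2, Isg15 and Ifit3; from each pathway list all ligands and receptors and up to 4 other genes by the same p may be named. Alternatives changed the background correction, normalization, filter, group labels, slide and the arrays or mice used. One gene of the signalling list is not reported here.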

Additional observations from a re-analysis of the deposited data

How the results depend on the processing

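Few arrays per pair of groups and the spread between mice limit these results. The count of genes called for WTC minus WT, 0 in the ratio fit, was 26 in the separate-channel fit, 9 with a slide term, 30 without the TC mouse of array I, 24 without both mice of array M (an alternative chosen after seeing the data) and 14 with arrays I, J and K left out. Of all features, those alternatives called 14.2%, 9.21%, 16.2%, 11.7% and 5.21% higher, in the same order. They called 12.2%, 4.08%, 16%, 7.77% and 1.55% lower. Leaving out 1 array at a time gave 0 to 5 calls, 5 without array I and 2 without array K, where 4.75% and 4.66% of all features were called higher. For TC minus T the same counts were 13, 1, 26 and 9, against 4.71%, 2.64%, 8.12% and 4.4% of all features called higher. They were 0 with arrays I, J and K or any 1 array left out. Of all features, 0% were called higher without arrays I, J and K, 0% without array K and 0.023% without array I. The share was not counted for the other single arrays. The median ratio for TC minus T, 0.74, was 1.60 with groups from the channel 2 labels and 1.98 with arrays I, J and K left out, and the difference of the lesion effects, -0.15, was 0.81 with those arrays left out. Leaving out 1 array gave medians of 0.45 to 1.14 for WTC minus WT, 0.39 to 1.18 for TC minus T, -0.05 to 0.47 for T minus WT, -0.28 to 0.16 for TC minus WTC and -0.41 to 0.18 for the difference. The lowest came without array B (WTC minus WT), C (the other 3 pairs of groups) or E, and the highest without I, I, E, B or B. The cause was not tested. The medians of both lesion comparisons stayed positive in these alternatives, except that the mean of the 2 arrays pairing TC with T directly (also chosen after seeing the data) gave -0.01. No paired analysis was possible because each mouse was on 1 array and the mouse numbers are not shared between groups.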
